A study of Mus musculus with 12 samples.

Results

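The genes described here are 48 genes that copy DNA and supply the nucleotides for it. They were taken by name from a fixed list. They cover the replicative helicase, the proteins that license and fire replication origins, DNA polymerases and primase, the sliding clamp and its loaders, the single-strand binding protein, the enzymes that join lagging-strand fragments, deoxynucleotide synthesis, and factors that restore chromatin and DNA methylation behind the fork. All 48 were measured, among 19938 genes, each represented by the probe set of that single gene symbol with the highest mean over all arrays. RNA of mouse embryonic hearts, dissected at E8.75, was read on 12 Affymetrix arrays. There were 3 arrays for each of 4 genotypes: Nkx2-5 KO, Tbx5 KO, the 2 knockouts combined (double KO) and wild-type controls (WT). Nkx2-5 and Tbx5 encode cardiac transcription factors. Arrays of 1 genotype carry biological replicate numbers in the labels, which describe neither the mutant alleles nor whether an array holds 1 heart or a pool. The p-values therefore measure the spread between these samples, and the number of arrays limits the precision. All values are log2 expression levels as deposited, so a difference of 1 is a 2-fold change.

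Before a cell divides, origins of replication are bound by the origin recognition complex, and Cdc6 and Cdt1 load the Mcm2-7 ring there. The Cdc7 kinase and other firing factors then join Cdc45 and the GINS complex to that ring to make the active helicase, primase lays down primers, and the polymerases extend them with the clamp. Many of these genes are known targets of E2F transcription factors and are transcribed around the start of S phase, so their RNA is abundant in proliferating tissue, and the muscle of the early embryonic heart is proliferating.

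Sex-linked RNA followed the Nkx2-5 genotype. Xist, which is transcribed from the inactive X chromosome, read 11.46 to 12.32 wherever Nkx2-5 was intact (WT, Tbx5 KO) and 6.44 to 8.16 wherever it was not (Nkx2-5 KO, double KO), and Y-linked Eif2s3y ran the other way, at 5.07 to 6.92 and 10.33 to 10.67. Sex and Nkx2-5 genotype therefore cannot be told apart in Nkx2-5 KO against WT, in the double KO against WT or Tbx5 KO, or in Tbx5 KO against Nkx2-5 KO, whereas the double KO against Nkx2-5 KO and Tbx5 KO against WT compare arrays of like Xist and Eif2s3y level. The measure of additivity described below, which uses every genotype, has the same limit. The Nkx2-5 probe set read 9.33 to 9.36 in WT, 8.72 to 9.13 in Nkx2-5 KO and 8.97 to 9.21 in the double KO. The Tbx5 probe set read 10.15, 10.13 and 9.90 in WT, 10.73, 10.42 and 10.45 in Tbx5 KO and 10.31, 10.65 and 10.83 in the double KO, so it was higher, not lower, on every array labelled as lacking Tbx5. Its difference from WT was 0.47 in Tbx5 KO (limma adjusted p = 0.127, not called) and 0.54 in the double KO (adjusted p = 0.0193, called higher). With the deleted segments undescribed, these probe sets do not check the genotypes. The labelled tissue was checked on its markers: the summed level of 8 of 8 listed cardiac muscle genes lay between 16.33 and 16.48 on the log2 scale on every array. Single genes of that list did change in the double KO against WT. Myh6 was called lower (-0.81), and Myh7 (0.40), Tnnt2 (0.23) and Ttn (0.31) were called higher. Actc1, Myl7, Ryr2 and Tnni1 were not called. The summed level of the 6 measured of 7 listed erythroid genes was 13.42 to 15.07 in WT and 13.61 to 14.72 in Nkx2-5 KO. It was 13.92 to 13.96 in Tbx5 KO and 11.95 to 13.44 in the double KO. All 6 had a negative difference from WT in the double KO, and 3 of them (Hba-x, Hbb-bh1 and Slc4a1) were called lower. For the 4 measured of 6 trophoblast and decidua genes the sums were 10.96 to 11.35 in Tbx5 KO and 8.47 to 9.02 elsewhere. The sums of 4 of 4 proepicardium genes were 10.64 to 11.48 in WT, 10.50 to 10.75 in Nkx2-5 KO, 10.37 to 10.51 in Tbx5 KO and 10.11 to 10.43 in the double KO, and 3 of the 4 (Tbx18, Upk3b and Wt1) fell in the double KO against WT. The sums of 8 of 8 endocardium and endothelium genes were 12.77 to 13.55 in WT, 13.26 to 13.56 in Nkx2-5 KO, 12.97 to 13.12 in Tbx5 KO and 12.98 to 13.12 in the double KO, where 3 of the 8 (Tek, Nfatc1 and Emcn) fell against WT. The others (Kdr, Egfl7, Tie1, Pecam1 and Cdh5) had positive differences there, from 0.13 to 0.43, and were not called. The erythroid sums of WT replicates 1, 2 and 3 were 15.07, 13.42 and 14.93, beside medians of the 48 genes, as differences from the WT mean, of -0.01, -0.02 and 0.01. Those of the double KO replicates were 12.60, 11.95 and 13.44, beside medians of -1.20, -1.22 and -0.75. Within Nkx2-5 KO the order ran the other way. Replicate 2 had the lowest erythroid sum of that group, 13.61, and the highest median, -0.16. Replicates 1 and 3 had higher sums and medians of -0.49 and -0.50. The Tbx5 KO sums of 13.92 to 13.96 stood beside medians of -0.12, -0.18 and -0.19. For 5 of 5 neural crest and pharyngeal mesenchyme genes the sum was 11.67 on Nkx2-5 KO replicate 2 and 10.50 to 10.85 on all other arrays. For 8 of 8 foregut and visceral endoderm genes it was 11.71 on Nkx2-5 KO replicate 2 and 10.83 to 11.55 on the others. Of these, Sox17 was called higher in every KO against WT and Apoa1 in the double KO. The sums of 5 of 5 neural genes were 10.77 to 10.97 in Tbx5 KO and 11.09 to 11.51 elsewhere. Pax6 was called higher and Tubb3 lower in every KO against WT, at 1.85 and -1.55 in the double KO. Sox1 was called higher in the double KO, and Sox2 and Nes were not called. The part of these markers in the results below was not tested.

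The replication genes were lower in the double KO, almost as a block. With each gene set against its own WT mean, the median over the 48 genes was -0.01, -0.02 and 0.01 on the WT arrays, -0.49, -0.16 and -0.50 in Nkx2-5 KO, -0.12, -0.18 and -0.19 in Tbx5 KO, and -1.20, -1.22 and -0.75 in the double KO. Those of the double KO were the lowest of all, and double KO replicate 3 was closer to the other genotypes than its group mates were. On those 3 arrays 48, 48 and 46 of the 48 genes lay below their WT mean. Over all 19938 genes the corresponding medians ran only from -0.03 to 0.07. Because the arrays measure whole hearts, fewer cells in S phase and less of these RNAs per cell cannot be told apart.

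**Figure D1:**
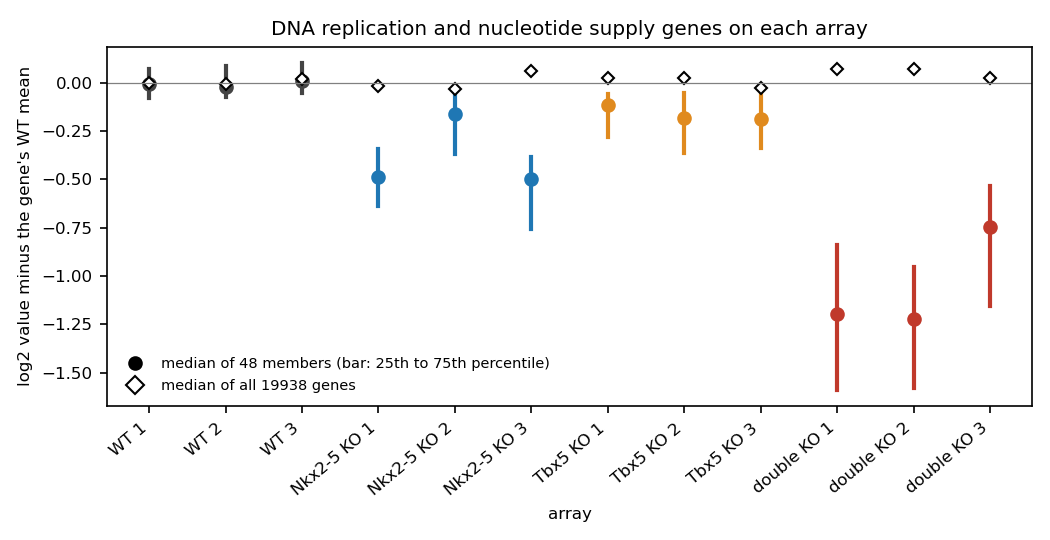
Log2 level minus the gene's own WT mean on each of the 12 arrays: filled points are the median over the 48 replication and nucleotide genes, bars run from their 25th to 75th percentile, and open diamonds are the median over all 19938 genes. The double KO arrays sit at -1.20, -1.22 and -0.75, below every other array, while the open diamonds stay near 0.

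A gene was called lower or higher when its limma p, adjusted by Benjamini and Hochberg over all 19938 genes, was under 0.05. In the double KO against WT, 42 of the 48 genes fell and 0 rose, where 14.4% of all genes fell and 9.05% rose. Over the 48 genes the median difference was -1.01 (25th to 75th percentile -1.39 to -0.74, range -2.20 to -0.33), beside 0.06 over all genes, and 44 of the 48 had every double KO array below every WT array, as did 18.7% of all genes. A fall of at least 1 log2 unit was measured for 26 of the 48 genes (54.2%) and for 3.3% of all genes. The share of genes that fell depended on brightness: it was 37.6% in the brightest quintile of all genes, which holds 28 of the 48, and 23.5% in the next, which holds 16. Scaling also mattered for the background: after median-centring of every array, the median difference over all genes moved by -0.12, 18.9% of genes fell, and 44 of the 48 were called lower.

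Each single KO gave far fewer calls. In Nkx2-5 KO against WT, 8 of the 48 genes fell and 0 rose, where 2.59% of all genes fell and 1.84% rose; the median was -0.40, and all 48 differences were negative. In Tbx5 KO against WT, 1 gene, Fen1, fell and 0 rose, where 1.31% of all genes fell and 0.998% rose; the median was -0.16, with 40 differences negative. At an unadjusted p under 0.05, 28 genes were lower and 0 higher in Nkx2-5 KO, and 8 lower and 1 higher in Tbx5 KO. Counts at an unadjusted p, here and below, are given without the share of all genes at that level. Arrays did not overlap with WT in the lower direction for 29 genes in Nkx2-5 KO (12.6% of all genes) and for 20 in Tbx5 KO (11.4% of all genes). The Nkx2-5 KO count rested on single arrays: it was 2 when WT replicate 1 or replicate 1 or 3 of Nkx2-5 KO was left out, 3 without WT replicate 3, 5 without Tbx5 KO replicate 1, and 15 without double KO replicate 3, which enters only through the shared spread. Of the 8 calls in Nkx2-5 KO, those of Cdc7 and Fen1 held in all 20 alternatives. Those of Cdc6, Tyms and Gins1 were lost in the 4 that left out replicate 1 or replicate 3 of either group, and those of Pole2, Orc2 and Rfc4 in 5, 13 and 12. The Tbx5 KO count was 0 without WT replicate 1, WT replicate 3 or Tbx5 KO replicate 3.

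**Figure D2:**
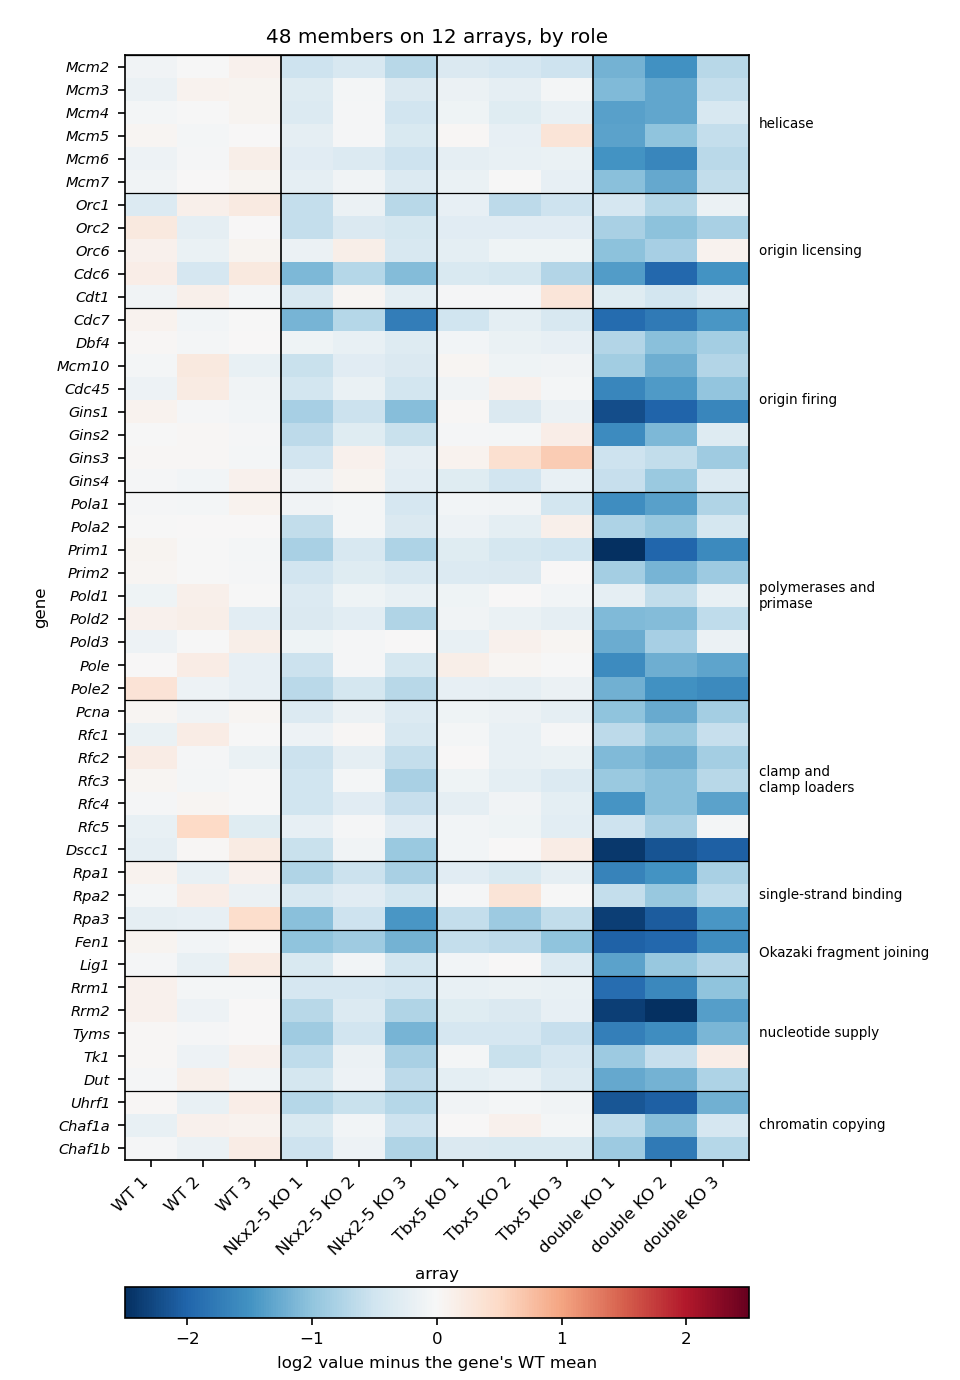
Log2 level minus the gene's WT mean for each of the 48 genes (rows, by role) on each of the 12 arrays (columns); blue is below the WT mean and red above it. The double KO columns are blue for nearly every gene, with Orc1, Cdt1 and Tk1 among the palest, and Nkx2-5 KO replicate 2 is paler than the other arrays of its group.

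Sequence upstream of the genes is shown because these genes moved together and E2F sites are a known shared feature of replication promoters. In RefSeq promoter windows (build GRCm38.p6, 250 bases before to 50 after a gene's start), 40 of the 48 genes were represented. Both strands were searched for the letters TTTCCCGC, TTTGGCGC, TTTCGCGC and TTTGCCGC, all core versions of the E2F site, which can overlap one another. At least 1 of them stood in 15 of the 40 genes (37.5%) and in 543 of the 15614 tested genes with a window (3.5%). Counted by window, this was 15 of 48 windows (31.2%) against 744 of 32851 (2.3%). The motif was present in 12 of the 34 represented genes that fell in the double KO and in 3 of the 6 that were not called there (Orc1, Cdt1 and Pold1). The letters CCAAT stood in 24 of the 40 genes (60.0%) against 41.7% of tested genes, and TTTGAA, part of a cell cycle element, in 7 (17.5%) against 17.3%. A match describes the letters in the window and is not a measured binding site. Stretches of 30 bases around a match before the start are shown for 7 of the 15 genes, those whose match nearest the start lay before it, on the gene's own strand from 5′ to 3′ with motif letters in capitals.
Mcm5: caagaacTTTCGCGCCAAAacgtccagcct
Mcm6: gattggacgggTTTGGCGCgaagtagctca
Orc1: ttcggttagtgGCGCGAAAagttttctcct
Cdc6: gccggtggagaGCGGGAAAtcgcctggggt
Gins3: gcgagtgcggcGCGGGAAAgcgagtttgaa
Pola1: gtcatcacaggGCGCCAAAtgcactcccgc
Uhrf1: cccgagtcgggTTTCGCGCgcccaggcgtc

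These windows are chr8:75109349-75109378, plus strand (Mcm5), chr1:128359734-128359763, minus strand (Mcm6), chr4:108579416-108579445, plus strand (Orc1), chr11:98908002-98908031, plus strand (Cdc6), chr8:95633507-95633536, plus strand (Gins3), chrX:93632275-93632304, minus strand (Pola1) and chr17:56304117-56304146, plus strand (Uhrf1). In the Mcm5 window the capitals are a pair of overlapping motifs. Of these 7 genes, all but Orc1 fell in the double KO. Upstream of Mcm6 the motif occurred 3 times in 120 bases (chr1:128359706-128359825, minus strand), the first match overlapping the second, and that stretch is shown because it holds several matches.
Mcm6 upstream: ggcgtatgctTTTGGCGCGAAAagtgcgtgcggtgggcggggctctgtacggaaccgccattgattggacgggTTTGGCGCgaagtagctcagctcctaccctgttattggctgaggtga

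Of the 9 roles, origin licensing had the smallest median difference in the double KO against WT, -0.59, with 2 of 5 genes called lower. Cdc6, the loader that recruits the Mcm2-7 ring to origins, fell most. Cdc6 was at 10.12, 9.54 and 10.20 in WT hearts, 8.84, 9.24 and 8.88 in Nkx2-5 KO hearts, 9.57, 9.51 and 9.22 in Tbx5 KO hearts and 8.56, 7.999 and 8.45 in double KO hearts. All Nkx2-5 KO and double KO arrays were below the lowest WT array, and the Tbx5 KO arrays overlapped WT. Cdc6 fell by 1.62 ± 0.19 (SE; 3.07-fold; adjusted p = 0.000118) in the double KO and by 0.97 ± 0.19 (adjusted p = 0.0176) in Nkx2-5 KO, whereas the Tbx5 KO difference was -0.52 ± 0.19 (adjusted p = 0.209). Orc2, a core subunit of the origin recognition complex, also fell in both Nkx2-5 mutants. For Orc2 the log2 levels ran 10.68, 10.22 and 10.46 in WT, 9.85, 10.10 and 10.02 in Nkx2-5 KO, 10.16, 10.16 and 10.17 in Tbx5 KO and 9.63, 9.43 and 9.65 in the double KO. Its falls were 0.88 ± 0.12 (adjusted p = 0.000242) and 0.47 ± 0.12 (adjusted p = 0.0468), with all arrays of each mutant below WT. The 3 others were not called. Orc1, the largest subunit and an ATPase of that complex, was at 8.87, 9.34 and 9.44 in WT and at 8.80, 8.503 and 9.07 in the double KO, which overlap, a difference of -0.43 ± 0.19 (95% interval -0.85 to -0.01; adjusted p = 0.131). Its single KO differences were as large, at -0.48 ± 0.19 and -0.46 ± 0.19, neither called. Orc6, the smallest subunit, differed by -0.59 ± 0.23 (interval -1.09 to -0.08) and Cdt1, the partner of Cdc6 in loading, by -0.35 ± 0.13 (interval -0.62 to -0.07).

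RNA of the Mcm2-7 ring, the motor of the helicase, fell for every subunit in the double KO. Against WT 6 of 6 subunits were called lower, with differences from -0.98 (Mcm7) and -0.98 (Mcm5) through -1.005 (Mcm3), -1.02 (Mcm4) and -1.13 (Mcm2) to -1.27 (Mcm6). Mcm6 stood at 11.18, 11.27 and 11.45 in WT hearts, 11.02, 10.95 and 10.78 in Nkx2-5 KO hearts, 11.07, 11.11 and 11.13 in Tbx5 KO hearts and 9.80, 9.67 and 10.62 in double KO hearts. The double KO arrays were below all others, with replicate 3 the highest of them. In each single KO 0 of the 6 were called by limma, and 1 had an unadjusted p under 0.05. Their medians were -0.27 in Nkx2-5 KO and -0.17 in Tbx5 KO, with Mcm2 the lowest of the 6 in each at -0.54 ± 0.16 (adjusted p = 0.0846) and -0.44 ± 0.16 (adjusted p = 0.217).

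Origin firing genes fell in the double KO without exception, 8 of 8, with a median of -0.97. Gins1, a subunit of the GINS complex that activates the helicase, showed the largest fall. Gins1 was at 10.87, 10.75 and 10.71 in WT hearts, 9.96, 10.24 and 9.72 in Nkx2-5 KO hearts, 10.80, 10.41 and 10.63 in Tbx5 KO hearts and 8.56, 8.79 and 9.15 in double KO hearts. Double KO levels were below all others, and those of Nkx2-5 KO were below both WT and Tbx5 KO. Gins1 fell by 1.95 ± 0.16 (SE; 3.86-fold; adjusted p = 1.35e-05) in the double KO and by 0.81 ± 0.16 (adjusted p = 0.018) in Nkx2-5 KO. Cdc7, the kinase that triggers firing by phosphorylating Mcm subunits, had the largest Nkx2-5 KO difference of the 48 genes. For Cdc7 the log2 levels ran 9.13, 8.98 and 9.04 in WT, 7.89, 8.34 and 7.33 in Nkx2-5 KO, 8.56, 8.80 and 8.64 in Tbx5 KO and 7.13, 7.28 and 7.61 in the double KO. All 3 mutant groups lay below WT, and the double KO arrays overlapped those of Nkx2-5 KO. It fell by 1.20 ± 0.20 (SE; 2.3-fold; adjusted p = 0.00821) in Nkx2-5 KO and by 1.71 ± 0.20 (adjusted p = 0.000106) in the double KO, and differed by -0.38 ± 0.20 (adjusted p = 0.414) in Tbx5 KO. Cdc45, which joins the ring and GINS in the active helicase, was called lower in each comparison with the double KO. For Cdc45 the log2 levels ran 10.45, 10.79 and 10.50 in WT, 10.12, 10.41 and 10.11 in Nkx2-5 KO, 10.49, 10.68 and 10.52 in Tbx5 KO and 8.94, 9.17 and 9.59 in the double KO. Its double KO levels were below every other array while Nkx2-5 KO lay just below WT and Tbx5 KO overlapped it. Its double KO fall was 1.35 ± 0.16 (adjusted p = 9.78e-05), against -0.36 ± 0.16 and -0.02 ± 0.16 in the single KOs, not called. The other firing genes fell by 1.004 (Gins2), 0.67 (Gins3) and 0.61 (Gins4), all GINS subunits, by 0.94 (Mcm10, which helps unwinding begin) and by 0.87 (Dbf4, the activating partner of Cdc7). Gins3 was the exception in Tbx5 KO. Gins3 read 9.90, 9.88 and 9.81 in WT hearts, 9.38, 9.97 and 9.65 in Nkx2-5 KO hearts, 9.95, 10.26 and 10.50 in Tbx5 KO hearts and 9.35, 9.25 and 8.97 in double KO hearts. Its Tbx5 KO arrays were all above WT, at a difference of 0.38 ± 0.16 (adjusted p = 0.3), which was not called.

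Among polymerases and primase, 8 of 9 genes fell in the double KO, with a median of -0.98. Prim1, the catalytic subunit of primase, fell most in this class. Prim1 was at 11.14, 11.06 and 11.02 in WT hearts, 10.26, 10.68 and 10.31 in Nkx2-5 KO hearts, 10.79, 10.65 and 10.58 in Tbx5 KO hearts and 8.14, 9.09 and 9.48 in double KO hearts. Replicates spread over more than 1 log2 unit within the double KO, but all 3 were below every other array. Prim1 fell by 2.17 ± 0.25 (SE; 4.51-fold; adjusted p = 9.04e-05), while the single KO differences of -0.66 ± 0.25 (adjusted p = 0.172) and -0.41 ± 0.25 (adjusted p = 0.506) were not called. Its partner Prim2, the large primase subunit, fell by 0.98, and the polymerase alpha subunits that work with primase fell by 1.22 (Pola1, catalytic) and 0.72 (Pola2). Pola1 is X-linked. For Pola1 the log2 levels ran 10.57, 10.53 and 10.67 in WT, 10.49, 10.54 and 10.17 in Nkx2-5 KO, 10.52, 10.49 and 10.13 in Tbx5 KO and 9.04, 9.24 and 9.83 in the double KO. The double KO arrays lay below those of Nkx2-5 KO, which had the same sex-linked pattern, by 1.03 ± 0.18 (adjusted p = 0.00661). RNA of the leading-strand polymerase was lower as well. Pole read 9.56, 9.75 and 9.36 in WT hearts, 9.03, 9.53 and 9.12 in Nkx2-5 KO hearts, 9.70, 9.62 and 9.55 in Tbx5 KO hearts and 7.99, 8.34 and 8.23 in double KO hearts. Pole, the catalytic subunit of polymerase epsilon, showed no separation of WT from either single KO, and all double KO arrays were below the rest. It fell by 1.37 ± 0.14 (adjusted p = 4.86e-05) in the double KO. Pole2, its second subunit, fell by 1.43 ± 0.15 (adjusted p = 4.11e-05) there and by 0.60 ± 0.15 (adjusted p = 0.0372) in Nkx2-5 KO. For Pole2 the log2 levels ran 9.82, 9.36 and 9.27 in WT, 8.81, 9.03 and 8.79 in Nkx2-5 KO, 9.27, 9.26 and 9.35 in Tbx5 KO and 8.29, 7.97 and 7.90 in the double KO. Its double KO and Nkx2-5 KO arrays were all below WT. In the delta polymerase, which extends the lagging strand, Pold2 and Pold3, accessory subunits, fell by 0.94 and 0.74, and catalytic Pold1 differed by -0.33 ± 0.12 (interval -0.60 to -0.07; adjusted p = 0.066). The Pold3 call was lost in 4 of the alternative analyses, with adjusted p between 0.0682 and 0.0699; the other 41 calls of the double KO against WT held in all of them.

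The clamp and its loaders contained the largest difference of the set. Dscc1 is a subunit of an alternative clamp loader that acts in sister chromatid cohesion. Dscc1 was at 10.32, 10.56 and 10.74 in WT hearts, 9.98, 10.45 and 9.61 in Nkx2-5 KO hearts, 10.46, 10.54 and 10.72 in Tbx5 KO hearts and 8.13, 8.39 and 8.499 in double KO hearts. Every double KO array was more than 1 log2 unit below every other array, and the single KO arrays overlapped WT. It fell by 2.20 ± 0.19 (SE; 4.6-fold; adjusted p = 1.35e-05) in the double KO and differed by -0.53 ± 0.19 (adjusted p = 0.141) and 0.03 ± 0.19 (adjusted p = 0.972) in the single KOs. Rfc4, a subunit of the canonical loader, fell by 1.29 ± 0.12 (adjusted p = 2.19e-05) in the double KO and by 0.45 ± 0.12 (adjusted p = 0.049) in Nkx2-5 KO. For Rfc4 the log2 levels ran 10.70, 10.76 and 10.71 in WT, 10.23, 10.44 and 10.15 in Nkx2-5 KO, 10.50, 10.64 and 10.48 in Tbx5 KO and 9.25, 9.67 and 9.38 in the double KO. Its groups did not overlap in either comparison. Of the other loader subunits Rfc2 fell by 1.06, Rfc3 by 0.88 and Rfc1, the large subunit, by 0.72; Rfc5 differed by -0.45 ± 0.21 (interval -0.91 to 0.00). Pcna, the clamp itself, fell by 1.04 ± 0.11 (adjusted p = 4.86e-05), and its second probe set gave the same difference of -1.04. RefSeq lists processed copies of Pcna and of Tyms, with which these probe sets may share signal.

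All 3 subunits of RPA, which coats single-stranded DNA, fell in the double KO, by 1.33 (Rpa1), 0.72 (Rpa2) and 1.96 (Rpa3). Rpa3 was at 10.97, 11.002 and 11.64 in WT hearts, 10.15, 10.69 and 9.75 in Nkx2-5 KO hearts, 10.61, 10.29 and 10.58 in Tbx5 KO hearts and 8.86, 9.12 and 9.74 in double KO hearts. Rpa3 arrays of all mutants were below WT. Its Nkx2-5 KO difference of -1.01 ± 0.26 (adjusted p = 0.0508) and that of Rpa1, -0.70 ± 0.18 (adjusted p = 0.0503), just missed the threshold. The size of the Rpa3 fall depended on the probe set, -1.96 with the one used and -1.18 with the other.

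Fen1, which trims the flaps of lagging-strand fragments before they are joined, was the gene called in every KO against WT. Fen1 was at 9.92, 9.78 and 9.85 in WT hearts, 8.84, 8.96 and 8.68 in Nkx2-5 KO hearts, 9.25, 9.19 and 8.84 in Tbx5 KO hearts and 7.83, 7.89 and 8.29 in double KO hearts. All mutant arrays were below all WT arrays, and the double KO arrays were below both single KOs. The falls were 1.85 ± 0.14 (SE; 3.6-fold; adjusted p = 6.81e-06) in the double KO, 1.03 ± 0.14 (adjusted p = 0.00264) in Nkx2-5 KO and 0.76 ± 0.14 (adjusted p = 0.0156) in Tbx5 KO. Without WT replicate 1, WT replicate 3 or Tbx5 KO replicate 3 the Tbx5 KO call was lost (adjusted p 0.0566 to 0.0604). Lig1, the ligase that seals the fragments, fell by 0.998 in the double KO and by 0.69 against Nkx2-5 KO, and was not called in either single KO.

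RNA of the deoxynucleotide supply genes fell along with that of the replication genes: 4 of 5 were called lower in the double KO, with a median of -1.47. Rrm2 and Rrm1 are the small and large subunits of ribonucleotide reductase, which makes deoxynucleotides. Rrm2 was at 11.95, 11.72 and 11.85 in WT hearts, 11.15, 11.49 and 11.08 in Nkx2-5 KO hearts, 11.53, 11.48 and 11.63 in Tbx5 KO hearts and 9.48, 9.15 and 10.46 in double KO hearts. For Rrm1 the log2 levels ran 12.02, 11.87 and 11.85 in WT, 11.49, 11.50 and 11.43 in Nkx2-5 KO, 11.73, 11.74 and 11.73 in Tbx5 KO and 10.01, 10.30 and 10.90 in the double KO. For both genes all double KO arrays were below all others, with replicate 3 the highest of them. Rrm2 fell by 2.14 ± 0.25 (SE; 4.41-fold; adjusted p = 9.68e-05) and Rrm1 by 1.51 ± 0.17 (SE; 2.85-fold; adjusted p = 7.18e-05); neither was called in a single KO. Tyms, which makes thymidylate, also fell in Nkx2-5 KO. Tyms read 10.75, 10.69 and 10.72 in WT hearts, 9.83, 10.25 and 9.57 in Nkx2-5 KO hearts, 10.31, 10.31 and 10.14 in Tbx5 KO hearts and 9.01, 9.16 and 9.58 in double KO hearts. Every mutant group lay below WT. The Tyms falls were 1.47 ± 0.17 (adjusted p = 8.83e-05) in the double KO and 0.84 ± 0.17 (adjusted p = 0.0177) in Nkx2-5 KO. Dut, which removes dUTP, fell by 1.08. Tk1, the thymidine salvage kinase, was not called, at -0.44 ± 0.24 (interval -0.96 to 0.08; adjusted p = 0.209). For Tk1 the log2 levels ran 9.57, 9.41 and 9.64 in WT, 8.91, 9.39 and 8.74 in Nkx2-5 KO, 9.49, 8.99 and 9.12 in Tbx5 KO and 8.63, 8.97 and 9.71 in the double KO. Double KO replicate 3 was above every WT array and its group mates were below. Without that array, or with the mean of its probe sets, Tk1 was called lower (adjusted p 0.0193 and 0.00292). The Tk1 probe set that was not kept differed by -0.94 in the double KO against WT.

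Chromatin copying factors fell in the double KO, 3 of 3. Uhrf1, which carries DNA methylation to the new strand by recruiting Dnmt1, fell most. Uhrf1 was at 11.56, 11.36 and 11.71 in WT hearts, 10.82, 10.98 and 10.83 in Nkx2-5 KO hearts, 11.46, 11.49 and 11.45 in Tbx5 KO hearts and 9.40, 9.50 and 10.34 in double KO hearts. Again the double KO was lowest on every array, Nkx2-5 KO arrays were below WT, and the Tbx5 KO arrays lay within the WT range. Uhrf1 fell by 1.79 ± 0.19 (SE; 3.47-fold; adjusted p = 6.3e-05) in the double KO and differed by -0.67 ± 0.19 (adjusted p = 0.0743) in Nkx2-5 KO. Chaf1a and Chaf1b, subunits of the assembly factor that deposits histones on new DNA, fell by 0.71 and 1.13 in the double KO.

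**Figure D3:**
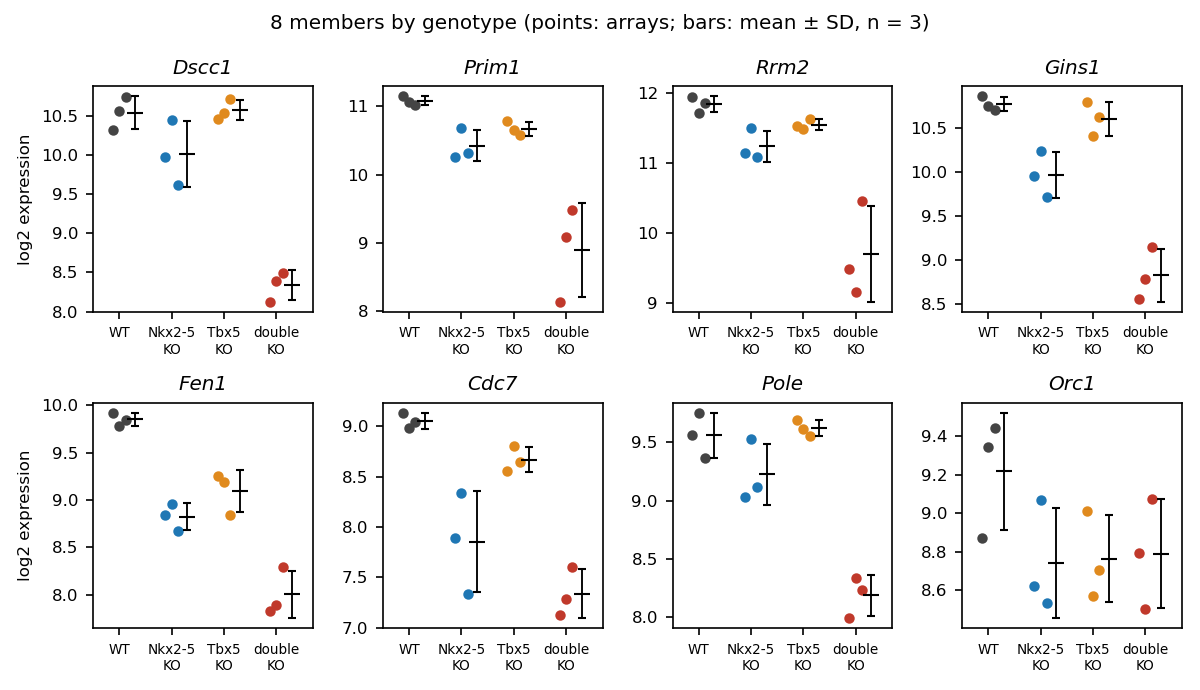
Log2 level of 8 genes on each array (points) by genotype, with the mean and SD of 3 arrays beside them; the vertical axes differ between panels and do not start at 0. For Dscc1, Prim1, Rrm2, Gins1, Fen1 and Pole the double KO points lie below all others, for Cdc7 they overlap Nkx2-5 KO, and for Orc1 the 3 mutant groups overlap.

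**Figure D4:**
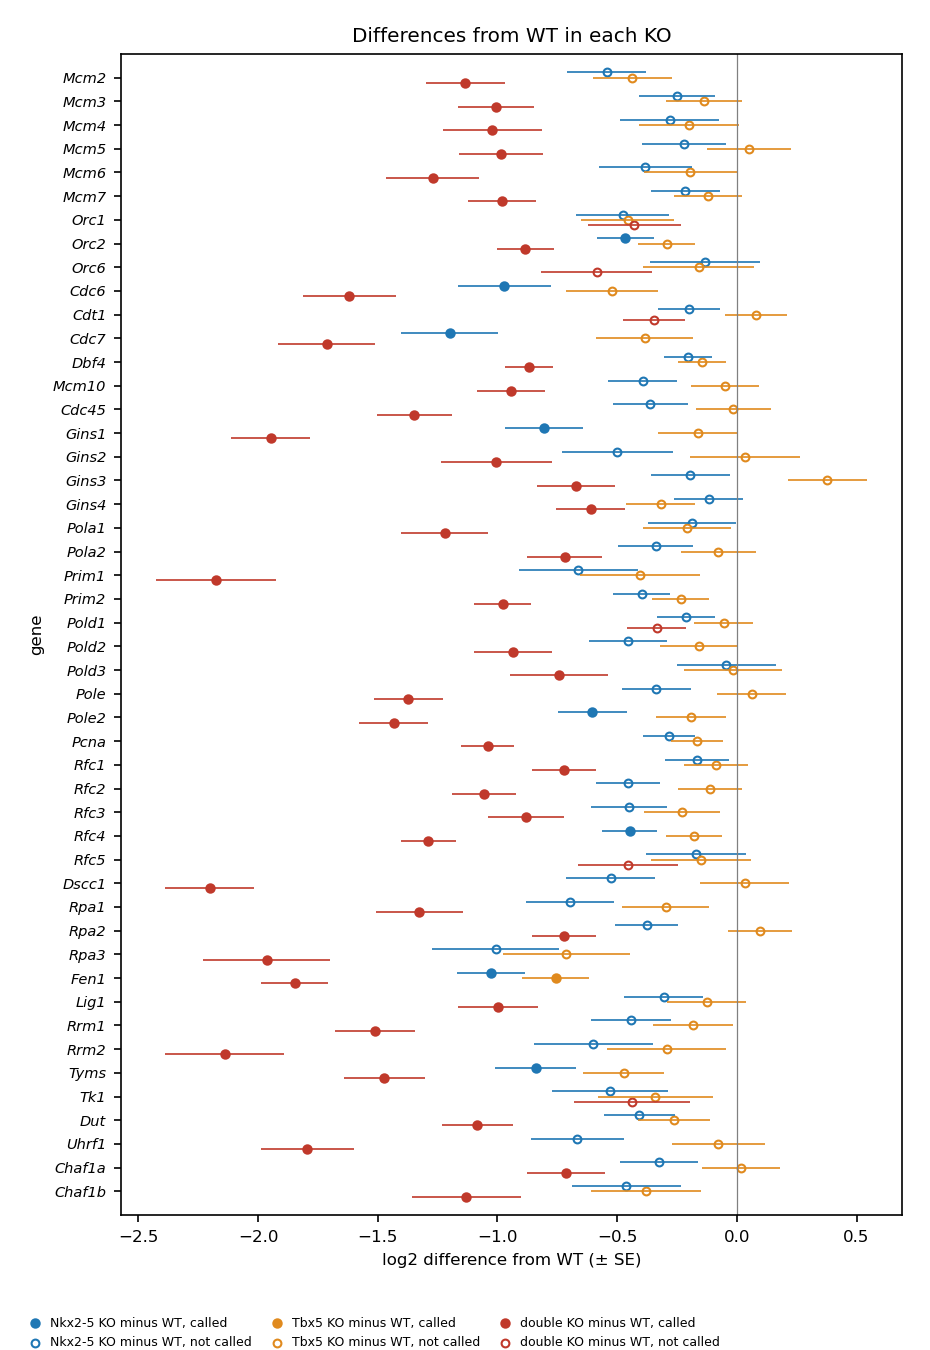
Log2 difference from WT (points) with its standard error (bars) for each of the 48 genes in the 3 KO groups; filled points were called at adjusted p under 0.05 and open ones were not. The double KO points are filled for 42 genes, those of Nkx2-5 KO for 8 and those of Tbx5 KO for Fen1.

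The comparisons of the double KO with each single KO share the double KO arrays, so they are not independent of each other or of the WT comparison. Against Nkx2-5 KO, 25 of the 48 genes fell and 0 rose, where 4.55% of all genes fell and 1.01% rose; the median was -0.66, and 33 genes did not overlap (13.7% of all genes). Dscc1 (-1.68), Rrm2 (-1.54), Prim1 (-1.51), Gins1 (-1.14), Uhrf1 (-1.13), Rrm1 (-1.07), Pole (-1.04) and Pola1 (-1.03) led. This comparison is between arrays with the same sex-linked pattern. By role, 4 of 6 ring subunits, 5 of 9 polymerase and primase genes and 4 of 5 nucleotide genes fell, and 0 of 5 licensing and 0 of 3 RPA genes were called by limma, although 2 and 3 of them had an unadjusted p under 0.05. The count was 15 without Nkx2-5 KO replicate 2 or without double KO replicate 2, and 15 when only the 6 arrays compared were fitted. Cdc7 and Cdc6, which had already fallen in Nkx2-5 KO, differed from it by -0.51 ± 0.20 (adjusted p = 0.16) and -0.65 ± 0.19 (adjusted p = 0.0718) and were not called. Against Tbx5 KO, 40 genes fell and 0 rose, where 7.86% of all genes fell and 2.87% rose; the median was -0.87, and 42 genes did not overlap (14.5% of all genes). The largest differences there were -2.23 (Dscc1), -1.85 (Rrm2), -1.78 (Gins1), -1.77 (Prim1), -1.72 (Uhrf1), -1.44 (Pole), -1.33 (Cdc45) and -1.33 (Rrm1). Orc1, Orc6, Cdt1, Gins4, Pold1, Rfc5, Tk1 and Chaf1b were the 8 not called.

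Set directly against each other, the single KOs gave 0 calls among the 48 genes with limma, where 2.39% of all genes were called in either direction. At an unadjusted p under 0.05, 16 genes were higher in Tbx5 KO and 0 lower, again without the share of all genes at that level. The median difference was 0.26 (0.01 over all genes). The largest were 0.81 ± 0.20 (adjusted p = 0.0579) for Cdc7, 0.64 ± 0.16 (adjusted p = 0.0653) for Gins1, 0.59 ± 0.19 (adjusted p = 0.173) for Uhrf1 and 0.57 ± 0.16 (adjusted p = 0.107) for Gins3. Without Nkx2-5 KO replicate 2, the array of its group nearest to WT, the count was 4, and without double KO replicate 3 it was 2. Nkx2-5 KO replicate 2 also had the highest neural crest and pharyngeal mesenchyme sum of all arrays. The part of that tissue in these counts was not tested.

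Whether the double KO equals the sum of both single KOs on the log2 scale was read from the non-additive term, the double KO difference minus both single KO differences, all against WT. The term sets the Tbx5 difference among arrays with low Xist against that among arrays with high Xist. A dependence of that difference on Nkx2-5 therefore cannot be told apart from a dependence on sex. The sum of both single KO differences had a median of -0.53 over the 48 genes, and the double KO a median of -1.01. The term had a median of -0.48 over the 48 genes and 0.02 over all genes. It was negative in 46 of the 48 against 45.1% of all genes. The background depended on brightness: the median term was -0.098 in the brightest quintile of all genes, which holds 28 of the 48. It was -0.035 in the next, which holds 16, and 0.06, 0.08 and 0.07 in the dimmer quintiles. The 95% interval of the term lay wholly below 0 in 24 of the 48, against 5.67% of all genes. But only 2 of the 48 passed adjustment over all genes, where 0.456% of all genes were called lower and 0.0903% higher. The median SE of the term was 0.23. The 2 were Dscc1, at -1.71 ± 0.26 (interval -2.28 to -1.14; adjusted p = 0.0132), and Pole, at -1.10 ± 0.20 (interval -1.54 to -0.66; adjusted p = 0.0348). For both genes the double KO arrays were below all 9 others. Dscc1 held in every alternative; Pole was lost in 10 of them, with adjusted p from 0.0515 to 0.104. Large terms that were not called were -1.25 ± 0.35 (adjusted p = 0.192) for Rrm2 and -1.11 ± 0.35 (adjusted p = 0.278) for Prim1. Near-additive genes had intervals around 0: Fen1 at -0.06 (interval -0.50 to 0.37), Cdc6 at -0.13 (interval -0.72 to 0.47) and Cdc7 at -0.13 (interval -0.75 to 0.49). Orc1 and Tk1 had positive terms, 0.50 ± 0.27 and 0.43 ± 0.34, not called. Without double KO replicate 3 the term was called in 16 genes, and without any 1 of 9 others it was called in 1. These 9 were WT replicates 1 and 3, Nkx2-5 KO replicates 2 and 3, every Tbx5 KO array, and double KO replicates 1 and 2.

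**Figure D5:**
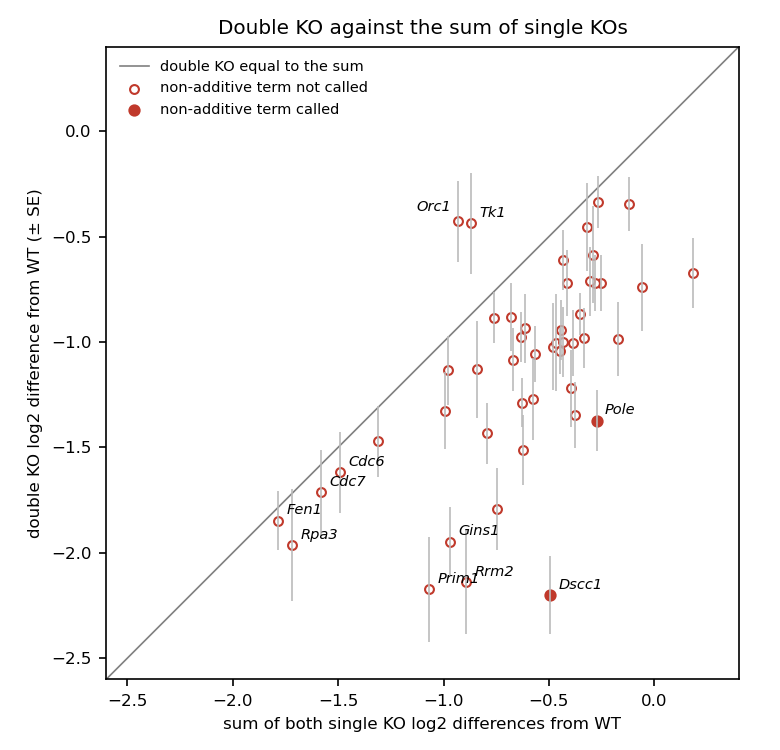
Double KO log2 difference from WT (vertical axis, bars are its SE) against the sum of both single KO differences (horizontal axis) for each of the 48 genes; the line marks equality and filled points are the 2 genes whose non-additive term was called. Points below the line fell further than the sum: 46 of 48 lie there, Dscc1 and Pole farthest relative to their error. Fen1, Cdc6 and Cdc7 lie close to the line and Orc1 and Tk1 above it. Tk1 is drawn from the probe set that was kept, and with the other it would lie below the line.

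Most further genes of the pathway fell too. Of 31 other replication genes 26 fell in the double KO and 1 rose (median -0.68). The largest falls were Tipin, a fork protection factor, at -1.99, Clspn, which couples fork stalling to checkpoint signalling, at -1.74, and Wdhd1, which links helicase and polymerase alpha, at -1.62; Pold4, the smallest subunit of polymerase delta, rose by 0.52. In Nkx2-5 KO 5 of the 31 fell, led by Dna2 (-0.92), a nuclease that works with Fen1, Asf1b (-0.84), a histone chaperone, and Wdhd1 (-0.78). In Tbx5 KO 2 fell, Dna2 (-0.74) and Slbp (-0.51), the histone mRNA binding protein. Leaving out 1 array ended some of these calls: Pold4 without WT replicate 1, Wdhd1 in Nkx2-5 KO without Nkx2-5 KO replicate 1, and Dna2 in Tbx5 KO without WT replicate 1, WT replicate 3 or Tbx5 KO replicate 2. The Slbp call was lost in 15 of 20 alternatives.

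Of 18 other nucleotide supply genes 12 fell in the double KO and 0 rose (median -1.09). Umps and Ctps, enzymes of pyrimidine synthesis, fell by 1.68 and 1.66, and Mthfd1, of one-carbon folate metabolism, by 1.59. In Nkx2-5 KO 8 of the 18 fell, led by the same enzymes at -1.03, -0.89 and -0.77, and in Tbx5 KO 0 were called by limma, with 9 lower and 1 higher at an unadjusted p under 0.05. The Nkx2-5 KO calls were lost in 4 (Umps), 11 (Ctps) and 2 (Mthfd1) of 20 alternatives, among them those without WT replicate 1 or Nkx2-5 KO replicate 1.

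E2F and checkpoint genes were mixed. In the double KO 11 of 18 fell and 1 rose (median -0.57): E2f8, a repressive E2F, fell by 1.51, the checkpoint kinase Chek1 by 1.29, and Rb1, the retinoblastoma protein that restrains E2F factors, rose by 1.14. Rb1 also rose in Nkx2-5 KO, by 0.85, as did Tfdp2, an E2F dimer partner, by 0.45, and in Tbx5 KO 0 of the 18 were called by limma, with 2 higher and 1 lower at an unadjusted p under 0.05. The Rb1 calls held in all alternatives, and that of Tfdp2 was lost in 10 of 20, median-centring included. Of 11 G1 to S genes 6 fell and 1 rose in the double KO. Ccne2, an S phase cyclin, fell by 1.61, Ccnd1, a G1 cyclin, by 1.09 and its kinase partner Cdk6 by 0.84. Cdkn1b, an inhibitor of cyclin-dependent kinases, rose by 0.53 in the double KO, 0.72 in Nkx2-5 KO and 0.71 in Tbx5 KO. In Tbx5 KO Ccnd2 rose by 0.51 and Ccnd1 fell by 0.66. The Cdkn1b calls were lost without WT replicate 1 or WT replicate 3 in each KO, and in the double KO after median-centring too. The Ccnd2 and Ccnd1 calls in Tbx5 KO were lost in 4 and 5 alternatives, without WT replicate 3 among them. The double KO calls of Chek1 and Cdk6 were lost in 1 alternative each, without WT replicate 1 and without double KO replicate 2.

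Mitotic genes, expressed after replication, fell in the double KO in 16 of 17 cases (median -1.23), among them the survivin gene Birc5 (-1.63), the mitotic kinase Cdk1 (-1.51) and the spindle checkpoint kinase Ttk (-1.49). With limma 0 of 17 were called in Nkx2-5 KO (median -0.20; 2 lower at an unadjusted p under 0.05) and 0 in Tbx5 KO (median 0.02; 0 at that level). A difference between the mitotic and replication lists was not tested. The non-additive term was called for 4 of the 17, Birc5 (-1.46), Kif11 (-1.43), a spindle motor, Ttk (-1.36) and Aurkb (-1.05), a chromosomal kinase. Among the other lists of replication and cell cycle genes it was called for Gmnn (-1.12) and Wee1 (-1.05). Gmnn inhibits Cdt1, and the kinase Wee1 delays mitosis. Among the tissue markers it was called for Prl3d3 (-5.62) and Prl8a2 (-2.87), of the trophoblast and decidua list. Birc5 and Kif11 kept the call in all alternatives, and Ttk, Aurkb, Gmnn and Wee1 lost it in 9 to 13 of 19.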

How the data were processed

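Total RNA from 12 samples of dissected hearts was amplified, labelled with biotin and hybridized to Affymetrix arrays, per the labels' protocols. The authors deposited log2 expression per probe set; the software, background correction and normalization are not given in the sources used here. These log2 values ran from 3.21 to 14.7, with array medians of 8.05 to 8.25, and were used with no further normalization or filter. Probe sets were named from the platform annotation: of 35557, 21789 had 1 gene symbol, 1621 several and 12147 none. For 999 genes with several probe sets (Pcna, Rpa3 and Tk1 among the 48) the one with the highest mean was kept, giving 19938 genes. With limma 3.58.1 in R 4.3.3, 4 group means were estimated over all 12 arrays together (8 residual and 4.51 prior degrees of freedom), with two-sided tests and Benjamini-Hochberg adjustment within each of 7 comparisons. The fit was first tested on simulated data. No pair of arrays was identical (0 pairs). The genes, the lists and the tests were chosen with earlier results of these data known. Array values are given for up to 8 called genes with the largest difference per comparison. Where fewer than 4 were called, they are given for up to 4 genes. Mcm6, Orc1 and Tk1 were added after their values were seen. Of each other list of replication, nucleotide and cell cycle genes, up to 3 called genes are named per direction and comparison in the KO against WT. All listed genes called in the non-additive term are named. Alternatives were other scalings, array weights, an intensity trend, only the arrays compared, a replicate block, no dim genes, the mean of a gene's probe sets and leaving out each array.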

Additional observations from a re-analysis of the deposited data

Results flagged for a closer look

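Dscc1 and Pole stood out because their difference between the double KO and WT was larger than the sum of both single KO differences in a test of that difference itself. For Dscc1 the excess was -1.71 on the log2 scale (adjusted p = 0.0132, limma over 19938 genes), with double KO arrays at 8.13, 8.39 and 8.499 and all 9 other arrays between 9.61 and 10.74. For Pole the excess was -1.10 (adjusted p = 0.0348), with double KO arrays at 7.99, 8.34 and 8.23 and the 9 others between 9.03 and 9.75.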

How the results depend on the processing

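No called gene changed direction under any alternative. In the double KO against WT the count of called genes ran from 41 to 46 and the median from -1.19 to -0.94 when single arrays were left out. The corresponding ranges were 2 to 15 calls for Nkx2-5 KO against WT, 0 to 1 for Tbx5 KO against WT, 15 to 35 for the double KO against Nkx2-5 KO, 34 to 42 against Tbx5 KO, 0 to 4 for Tbx5 KO against Nkx2-5 KO, and 1 to 16 for the non-additive term. Array weights gave 20 calls in Nkx2-5 KO, 9 in Tbx5 KO against Nkx2-5 KO and 10 non-additive terms. Fitting only the arrays compared gave 2 calls in Tbx5 KO, 15 in the double KO against Nkx2-5 KO and 1 in Tbx5 KO against Nkx2-5 KO, where leaving out dim genes also gave 1. Centring each array on its median gave 1 non-additive call, and raised the share of calls that were lower over all genes from 58.5% to 75.6% in Nkx2-5 KO, from 56.8% to 69.2% in Tbx5 KO, from 61.4% to 82.9% in the double KO, and from 73.3% to 86.4% in the double KO against Tbx5 KO. The cause of these shifts was not tested. Same-numbered arrays did not deviate together (18 pairs, r from -0.27 to 0.21, 3 over 0.1). With the replicate number as a block the counts were 7 in Nkx2-5 KO, 1 in Tbx5 KO, 42 in the double KO, 23 against Nkx2-5 KO, 40 against Tbx5 KO, 0 in Tbx5 KO against Nkx2-5 KO and 2 non-additive terms. With 3 arrays a group, differences near the standard errors given could not be called.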

Other observations

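Across the 12 arrays, the replication genes also varied together within genotypes. After each group's mean was subtracted, the median correlation between pairs of the 48 genes was 0.51, with 89.2% of pairs positive. The median of their correlation with all genes was -0.06. This is a description over 12 arrays that share their group means and array-wide shifts. It is seen in Nkx2-5 KO replicate 2 and double KO replicate 3, whose medians lay above those of their group mates.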
